A study of Rattus norvegicus with 20 samples.

Results

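The genes described here are regulators of the actin cytoskeleton: actin itself, the complexes that nucleate and branch filaments, the proteins that sever, cap, bundle or store actin, and the small GTPases and kinases that direct them. They were chosen by name from a list of 42 genes, and a probe was taken for a gene when the array's gene name or description gave that name. Of the 42 genes, 40 were found in this way and Diaph1 was found only under its older symbol Diap1, which gave 41 measured members among 33088 genes tested. Actg1, cytoplasmic gamma actin, had no probe under the rule and was not analysed here. The samples were cortical neurons cut out by laser capture from the tissue around a stroke in rats of 2 months of age. Cholera toxin B tracers of different colours were placed at the same peri-infarct cortical site, the later one after a survival of 7 days (5 animals) or 21 days (5 other animals), and about 300 neurons of each kind were captured 7 days after the later tracer. The labels call the neurons of each animal sprouting or non-sprouting. All groups had a stroke and both tracers, so there is no uninjured group, and the labels used here give no strain or sex. Each animal's sprouting and non-sprouting neurons were set against each other on 2 arrays with exchanged dyes, so the basic value is the log2 ratio of sprouting over non-sprouting neurons in 1 animal, the mean of its 2 arrays.

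An axon advances through its growth cone, where actin filaments grow at the leading edge and are taken apart behind it. The GTPases Rac1 and Cdc42 activate the WAVE complex and N-WASP, which switch on the Arp2/3 complex to branch new filaments, while formins and Ena/VASP proteins build unbranched ones. Cofilins and gelsolin cut filaments, capping proteins stop their growth, and profilins and thymosins hold and deliver the actin monomers.

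The 41 members had 60 probes, and the brightest probe stood for the gene. Of 14 genes with several probes, 8 had probes of opposite sign at day 7 (Abi2, Actn1, Actr3, Add2, Arpc5, Cfl2, Diaph1 and Wasf1) and 2 at day 21 (Cfl2 and Cttn). Of the 41 chosen probes 31 lay well above background on all 20 arrays in both channels, and the dimmest was that of Diaph1, above background on 15 arrays in the sprouting and 13 in the non-sprouting channel. Pfn2 was saturated in a channel on 10 arrays and Tmsb4x on 8, which limits how large a ratio can be read for them. Both arrays of an animal gave like ratios over the members (Pearson correlation over 41 genes, which are not independent, between 0.38 and 0.94) in 9 of 10 animals. In day 21 replicate 4 the arrays ran against each other (correlation -0.44, same sign in 10 of 41 members), so its mean ratios lie close to 0. Animals of the same day had little in common over all genes, with a median correlation between animals of 0.01 at day 7 and 0.06 at day 21. Of 7 neuron markers 5 lay above background on every array, and Slc17a7, a transporter of excitatory projection neurons, did so on only 13 sprouting and 12 non-sprouting channels. Oligodendrocyte markers (6 of 9 on every array) and microglial markers (6 of 10) were above background on every array too.

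At day 7 the median ratio of the 41 members was 0.03 against -0.01 over all genes, and 25 members were above 0. No member passed the test (limma, Benjamini-Hochberg adjusted p under 0.05 over all genes), where 0.00302% of all genes passed, a single gene. At an unadjusted p under 0.05 there were 8 members, 19.5% of the list, against 9.48% of all genes. Of these, Add2, Tmsb4x, Arpc4, Actb, Cfl2 and Cdc42 had ratios above 0, and Abi2 and Cyfip2 had ratios below 0. The 6 above compare with 4.51% of all genes and the 2 below with 4.97%. Here and below, all genes were not matched to the members for signal. Of the 41 chosen probes 18 lay in the brightest 10% of the genes tested. With the scanner's processed signals the count was 4 (3 above 0, 1 below), 9.76% of the list against 5.14% of all genes. Leaving out each animal in turn gave counts from 6 to 9 of 41, where 7.74% to 12.4% of all genes were past that limit.

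At day 21 the median ratio was 0.01 against 0.00 over all genes, again with 25 members above 0, and no member passed (0.0% of all genes did). Only Fmnl1, below 0, and Mtpn, above 0, had an unadjusted p under 0.05, which is 4.88% of the list against 5.8% of all genes. The direction of the list as a whole depends on the normalization: with median centring of each array in place of loess, 12 of 41 members were above 0 at day 7 (median -0.08) and 15 of 41 at day 21 (median -0.02). The 6 members that then had an unadjusted p under 0.05 at day 7 were all below 0, 14.6% of the list against 9.32% of all genes.

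A ratio with the same sign in all 5 animals was seen for Actb, Arpc4 and Cfl2 at day 7, all above 0, and at day 21 for Cfl1 and Mtpn, above 0, and Fmnl1, below 0. These are 7.32% of the list at each day, against 8.65% of all genes at day 7 and 8.29% at day 21. For Cfl1 the shared sign rests on a value of 0.004 in day 21 replicate 4, whose arrays disagreed. The median SD between animals over the members was 0.19 at day 7 and 0.13 at day 21, against 0.12 and 0.10 over all genes. All genes were not matched to the members for signal here. A member's ratio was above 0.3 most often in day 7 replicate 3, in 11 of 41 members, where 6.39% of all genes were that high. In day 21 replicate 4 no member was past 0.3 in either direction.

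**Figure D1:**
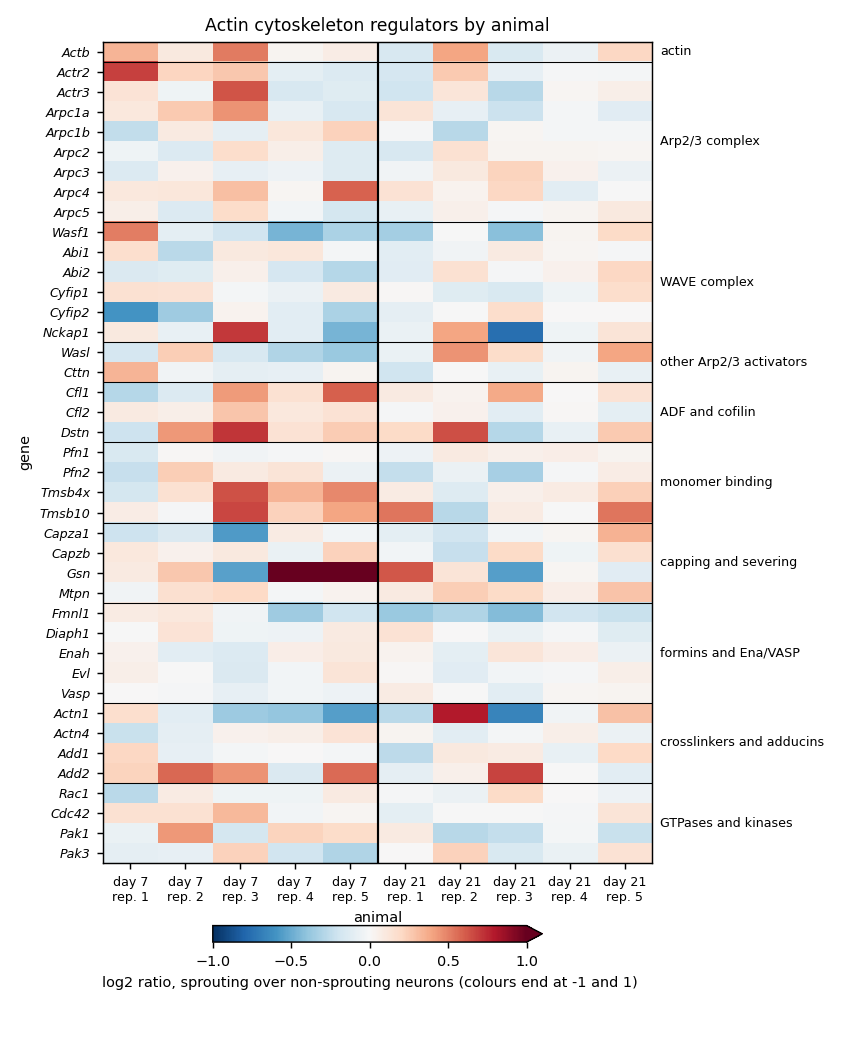
Log2 ratio of sprouting over non-sprouting neurons for each of the 41 members (rows, grouped by role) in each of the 10 animals (columns, the 5 of day 7 left of the line), with red above 0 and blue below 0. Few rows keep one colour over a day, day 7 replicate 3 has 11 members above 0.3, and day 21 replicate 4 is near 0 throughout.

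Actb, cytoplasmic beta actin and the building block of the filaments, had day 7 ratios of 0.34, 0.10, 0.52, 0.03 and 0.07 in replicates 1 to 5. All 5 animals were above 0, with a mean of 0.21 ± 0.21 (SD, n = 5) and an adjusted p of 0.524 (limma). The other Actb probe gave a mean of 0.30, but with median centring the mean was 0.01. At day 21 the ratios were -0.16, 0.39, -0.15, -0.06 and 0.21, on both sides of 0 (mean 0.05 ± 0.24, SD, n = 5).

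The Arp2/3 complex starts a new filament as a branch on an existing one, and its 8 measured subunits had mean ratios from -0.07 to 0.23 at day 7 and from -0.06 to 0.05 at day 21. Of the 8, 5 were above 0 at day 7 and 4 at day 21. In no animal did all 8 lie on the same side of 0. Day 7 replicate 3 had 6 of 8 above 0 (median 0.22), and replicate 5 of the same day had 2 of 8 (median -0.13).

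Arpc4, a core subunit of the complex, had day 7 ratios of 0.11, 0.11, 0.30, 0.02 and 0.59. It was above 0 in all 5 animals, with a mean of 0.23 ± 0.23 (SD, n = 5), a fold of 1.17 and an adjusted p of 0.470 (limma), and it kept a mean of 0.19 with median centring. At day 21 it was 0.14, 0.04, 0.20, -0.11 and 0.00. Actr2, the actin-related subunit Arp2, had day 7 ratios of 0.68, 0.21, 0.27, -0.09 and -0.14 (mean 0.19 ± 0.33, SD, n = 5). Its day 7 mean was 0.06 without replicate 1 and -0.04 with median centring. At day 21 its ratios were -0.17, 0.26, -0.09, -0.01 and -0.02.

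Actr3, the subunit Arp3, had day 7 ratios of 0.14, -0.04, 0.63, -0.16 and -0.12 (mean 0.09 ± 0.32, SD, n = 5). The mean was -0.05 without replicate 3 and -0.03 with median centring, and the dimmer Actr3 probe gave -0.25, so the direction of Actr3 is not settled. At day 21 its ratios were -0.20, 0.12, -0.27, 0.02 and 0.06. Arpc3, another core subunit, had day 21 ratios of -0.04, 0.10, 0.22, 0.04 and -0.06 (mean 0.05 ± 0.11, SD, n = 5), and its day 7 ratios were -0.13, 0.04, -0.08, -0.05 and -0.13. The remaining subunits Arpc1a, Arpc1b, Arpc2 and Arpc5 had means between -0.02 and 0.11 at day 7 and between -0.06 and 0.02 at day 21. The dimmer Arpc5 probe gave 0.19 at day 7 and 0.07 at day 21.

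The WAVE complex, which turns Rac1 activity into branching by Arp2/3, showed its lowest value for Cyfip2, a subunit that binds Rac1 and is the alternative of Cyfip1. Cyfip2 had day 7 ratios of -0.60, -0.36, 0.03, -0.11 and -0.32. It was below 0 in 4 of 5 animals, with a mean of -0.27 ± 0.24 (SD, n = 5) and an adjusted p of 0.430 (limma). A further limma fit took all 20 arrays, with animals as random blocks and a term for dye. At day 7 it called Cyfip2 alone of 41 members (adjusted p 0.0385), and 402 of 33088 genes against 1 in the fit by animal. It entered both dye-exchanged arrays of an animal separately, so its larger number of calls does not rest on more animals. At day 21 the ratios of Cyfip2 were -0.09, 0.00, 0.18, 0.01 and 0.00, with a mean of 0.02 ± 0.10 (SD, n = 5).

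Cyfip1 itself had day 7 ratios of 0.15, 0.14, -0.02, -0.05 and 0.09 and day 21 ratios of 0.01, -0.12, -0.16, -0.04 and 0.17, around 0 at each day. Abi2, an adaptor subunit of the complex, had day 7 ratios of -0.14, -0.12, 0.05, -0.17 and -0.28 (mean -0.13 ± 0.12, SD, n = 5, adjusted p 0.505, limma). At day 21 it was -0.11, 0.15, -0.01, 0.04 and 0.20. Abi2 was below 0 in 4 of 5 animals at day 7 and above 0 in 3 of 5 at day 21, but its other, dimmer probe gave a mean of 0.09 at day 7. Abi1, its paralogue, had means of 0.02 at day 7 and -0.01 at day 21. Nckap1, the scaffold of the complex, reached 0.71 in day 7 replicate 3 and -0.75 in day 21 replicate 3, with means of 0.03 and -0.07. Wasf1, the subunit that activates Arp2/3, ranged from -0.46 to 0.51 at day 7 (mean -0.11) and from -0.42 to 0.19 at day 21 (mean -0.11).

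The probe chosen for Wasl, the neural WASP that acts for Cdc42, carries an accession that RefSeq now gives to another gene, Iqub, as do 3 of the 4 Wasl probes. Its values are therefore given as those of that probe: -0.17, 0.25, -0.16, -0.30 and -0.37 at day 7 and -0.06, 0.45, 0.19, -0.04 and 0.39 at day 21. The remaining Wasl probe was above background on only 8 sprouting and 10 non-sprouting channels and gave means of 0.00 and 0.01. Cttn, cortactin, which stabilizes branches, had means of 0.03 at day 7 and -0.07 at day 21, while its dimmer probe gave 0.25 and 0.09.

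The 3 members of the ADF and cofilin family, which sever and depolymerize filaments, all had mean ratios above 0 at day 7, from 0.13 to 0.27, although Cfl2 did not with median centring (-0.04). Cfl2, known as muscle cofilin, had day 7 ratios of 0.09, 0.05, 0.28, 0.11 and 0.14. It had the smallest unadjusted p of the members at day 7, with all 5 animals above 0 and a mean of 0.13 ± 0.09 (SD, n = 5, adjusted p 0.430, limma). At day 21 it was -0.02, 0.04, -0.11, 0.01 and -0.10, a mean of -0.03 ± 0.07 (SD, n = 5). The highest day 21 animal lay below the lowest day 7 animal, so the ratios of the days did not overlap. Cfl2 was the single member of 41 of which this was so, and 0.758% of all genes were apart in this way. Its 4 probes gave day 7 means from -0.17 to 0.18 and day 21 means from -0.07 to 0.07, so the probes of Cfl2 disagree in sign at each day.

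Cfl1, the cofilin that predominates in brain, had day 7 ratios of -0.28, -0.14, 0.43, 0.15 and 0.60, spread over both sides of 0 (mean 0.15 ± 0.37, SD, n = 5). At day 21 it was 0.09, 0.03, 0.38, 0.00 and 0.15, above 0 in all 5 animals with a mean of 0.13 ± 0.15 (SD, n = 5, adjusted p 0.906, limma). The value of replicate 4, whose arrays disagreed, was only 0.004. Dstn, the depolymerizing factor destrin, ranged from -0.21 to 0.72 at day 7 and from -0.28 to 0.64 at day 21, with means of 0.27 and 0.15.

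Among the monomer-binding proteins the thymosins had the higher ratios. Tmsb4x, thymosin beta 4, which sequesters monomers, had day 7 ratios of -0.18, 0.15, 0.64, 0.34 and 0.48. It was above 0 in 4 of 5 animals (mean 0.29 ± 0.32, SD, n = 5, adjusted p 0.474, limma), but its mean was 0.05 with median centring. At day 21 it was 0.08, -0.13, 0.05, 0.08 and 0.24. Tmsb10, thymosin beta 10, had day 7 ratios of 0.07, -0.01, 0.67, 0.23 and 0.40 and day 21 ratios of 0.53, -0.28, 0.08, 0.00 and 0.53. The day means were 0.27 ± 0.27 and 0.17 ± 0.35 (SD, n = 5 each), and the same animals, day 7 replicates 3 and 5, held the highest values of both thymosins at day 7.

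Profilins, which charge monomers with ATP and hand them to growing ends, stayed closer to 0. Pfn1 had day 7 ratios of -0.15, 0.01, -0.04, -0.02 and 0.01 and day 21 ratios of -0.05, 0.09, 0.05, 0.07 and 0.03. The value of replicate 1 at day 7 was the furthest from 0. Pfn2, the neuronal profilin, had day 7 ratios of -0.23, 0.25, 0.09, 0.13 and -0.06 and day 21 ratios of -0.24, -0.06, -0.33, -0.01 and 0.07 (means 0.03 ± 0.18 and -0.11 ± 0.17, SD, n = 5 each). The day 7 mean of Pfn2 was -0.21 with median centring, and its ratio is limited by saturation.

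Mtpn, myotrophin, which binds and inhibits capping protein, had the most regular ratios above 0 at day 21: 0.09, 0.25, 0.19, 0.06 and 0.29. All 5 animals were above 0, with a mean of 0.18 ± 0.10 (SD, n = 5), a fold of 1.13 and an adjusted p of 0.841 (limma). The mean was 0.20 without replicate 4, whose arrays disagreed, 0.19 with median centring and 0.31 with the scanner's processed signals. At day 7 its ratios were -0.03, 0.16, 0.20, -0.02 and 0.04. Capza1 and Capzb, the subunits of the capping protein itself, had means of -0.17 and 0.08 at day 7 and 0.01 each at day 21.

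Gsn, gelsolin, a severing and capping protein that is also abundant in myelinating oligodendrocytes, had the widest spread of all members at day 7 and was picked for description after its values were seen. Its day 7 ratios were 0.09, 0.27, -0.55, 1.08 and 1.74 (mean 0.53 ± 0.89, SD, n = 5, adjusted p 0.569, limma), and its day 21 ratios were 0.62, 0.13, -0.55, 0.02 and -0.12. The median ratio of 9 oligodendrocyte markers was -0.69, 0.22, -0.02, 0.86 and 0.96 in the same day 7 animals and 0.67, -0.23, -0.29, 0.01 and -0.20 in those of day 21. The animals with the highest Gsn ratios, replicates 4 and 5 at day 7 and replicate 1 at day 21, were those with the highest oligodendrocyte medians. All 9 oligodendrocyte markers had means above 0 at day 7 (0.02 to 0.74) and 3 of 9 did at day 21. The part of oligodendrocyte RNA in the Gsn values was not tested, and in captured samples more such cells and more RNA per cell cannot be told apart.

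**Figure D2:**
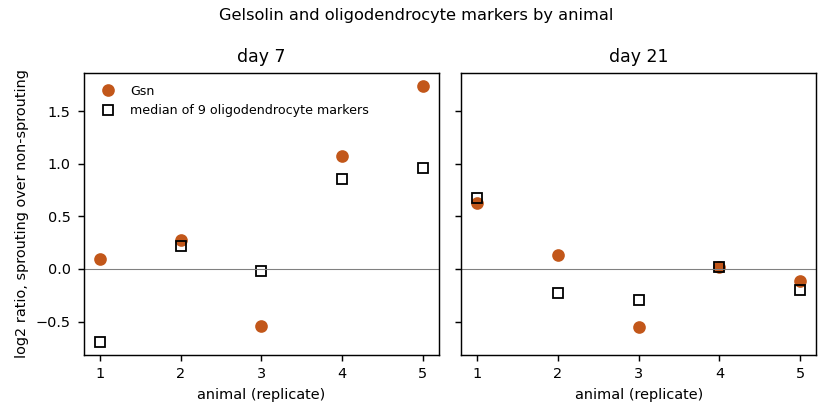
Log2 ratio of Gsn (filled circles) and median log2 ratio of 9 oligodendrocyte markers (open squares) in each animal of day 7 (left) and day 21 (right). At day 7 both are highest in replicates 4 and 5, where Gsn reached 1.08 and 1.74, and at day 21 both are highest in replicate 1.

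Fmnl1, a formin that elongates unbranched filaments, was the member with the most regular ratio below 0 at day 21: -0.37, -0.30, -0.44, -0.19 and -0.23. All 5 animals were below 0, with a mean of -0.31 ± 0.10 (SD, n = 5), a fold of 0.81, and an adjusted p of 0.841 (limma). The mean was -0.33 without replicate 4 and -0.31 with median centring. At day 7 its ratios were 0.08, 0.10, -0.03, -0.35 and -0.20, on both sides of 0 (mean -0.08 ± 0.19, SD, n = 5). Over both days Fmnl1 was the single one of 41 members called by the fit with all 20 arrays (adjusted p 0.0357). That fit, which entered both arrays of an animal separately, called 511 of 33088 genes.

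The other genes of this group stayed near 0. Diaph1, another formin, and the Ena/VASP proteins Enah, Evl and Vasp, which protect growing ends from capping, had means between -0.03 and 0.03 at day 7 and between -0.02 and 0.01 at day 21. No single animal was further than 0.14 from 0 for these 4 genes. Signals near background limit how large a ratio can be read for Diaph1, Enah and Vasp. Enah was above background on 16 sprouting and 16 non-sprouting channels of 20, and Vasp on 18 and 17.

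Among the crosslinkers and membrane skeleton proteins, Add2, beta adducin, which caps filaments and ties them to spectrin, had day 7 ratios of 0.22, 0.57, 0.45, -0.15 and 0.57. It was above 0 in 4 of 5 animals (mean 0.33 ± 0.31, SD, n = 5, a fold of 1.26, adjusted p 0.489, limma) and kept 0.28 with median centring. Its dimmer probe gave -0.13, so the Add2 probes disagree in sign at day 7. At day 21 Add2 was -0.09, 0.05, 0.68, 0.00 and -0.10. Add1, alpha adducin, had means of 0.02 and 0.01, and its dimmer probe gave 0.21 at day 7 and 0.12 at day 21. Actn1, an alpha actinin that crosslinks filaments, varied from -0.55 to 0.17 at day 7 and from -0.66 to 0.79 at day 21, and Actn4 had means of -0.02 at both days.

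Of the GTPases, Cdc42 had day 7 ratios of 0.15, 0.15, 0.33, -0.03 and 0.02. It was above 0 in 4 of 5 animals (mean 0.12 ± 0.14, SD, n = 5, adjusted p 0.503, limma), its second probe gave 0.16, and with median centring the mean was -0.08. At day 21 it was -0.10, -0.01, -0.01, -0.01 and 0.13. Rac1 had day 7 ratios of -0.27, 0.08, -0.05, -0.05 and 0.09 and day 21 ratios of -0.01, -0.06, 0.20, 0.00 and -0.05, with no common direction at either day. Pak1, a kinase activated by both GTPases, had day 7 ratios of -0.07, 0.43, -0.18, 0.23 and 0.18 and day 21 ratios of 0.09, -0.28, -0.23, -0.02 and -0.23. It was above 0 in 3 of 5 animals at day 7 (mean 0.12, or -0.03 with median centring) and below 0 in 4 of 5 at day 21 (mean -0.13). Pak3 had means of -0.09 and 0.03.

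**Figure D3:**
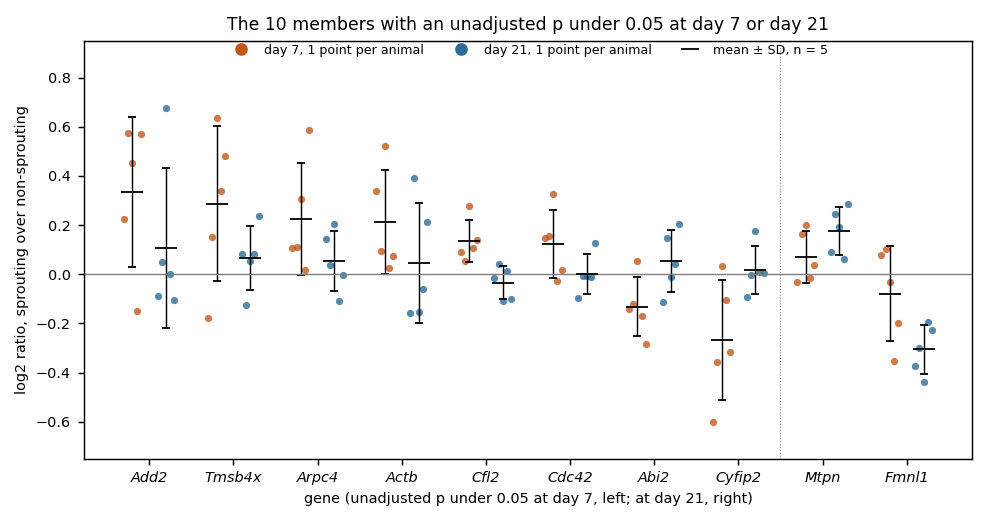
Log2 ratio of sprouting over non-sprouting neurons in each animal (points, orange day 7, blue day 21) with mean ± SD (n = 5) for the 10 members at an unadjusted p under 0.05 at day 7 (8 genes, left) or day 21 (2 genes, right). Mtpn and Fmnl1 keep 1 side of 0 in all 5 day 21 animals, and Actb, Arpc4 and Cfl2 in all 5 day 7 animals, although with median centring the day 7 means of Cfl2 and Cdc42 fall below 0. No gene shown passed the adjusted test.

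Averaged over both days the median of the members was 0.00, as over all genes, and no member passed (0.0% of all genes). At an unadjusted p under 0.05 there were 7 members, 17.1% against 11.0% of all genes. Fmnl1 (-0.19 ± 0.05 SE) and Mtpn (0.12 ± 0.03 SE) led, each with an adjusted p of 0.398 (limma), followed by Arpc4 (0.14), Tmsb4x (0.18) and Tmsb10 (0.22). Add2 (0.22) and Cyfip2 (-0.13) made up the 7. The count was 4 without day 7 replicate 3 (9.76% of the list against 9.49% of all genes) and 3 without day 7 replicate 5 (7.32% against 10.1%). It was 3 without day 21 replicate 1 (7.32% against 8.62%) and 4 without day 21 replicate 5 (9.76% against 10.4%). With median centring it was 4 (9.76% against 11.4%). Under each of these settings the share of the members was close to or below that of all genes. Other fits gave more members: leaving out each animal in turn gave counts from 3 to 9 of 41. In those fits 8.49% to 13.2% of all genes were past that limit.

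Whether the ratio itself differed between the days was tested as day 21 minus day 7. The median difference of the members was -0.04 against 0.00 over all genes, with 15 of 41 above 0, and 27 of 41 above 0 (median 0.04) with median centring. No member passed (0.0% of all genes), and 5 members had an unadjusted p under 0.05, 12.2% against 4.05% of all genes. These were Cfl2 (-0.17 ± 0.05 SE), Cyfip2 (0.29 ± 0.11 SE), Fmnl1 (-0.23 ± 0.09 SE), Abi2 (0.19 ± 0.08 SE) and the Wasl probe (0.34 ± 0.14 SE), each with an adjusted p of 0.943 (limma). The Wasl probe counted here is one that RefSeq gives to Iqub. The probe that RefSeq does not give to Iqub had means of 0.00 at day 7 and 0.01 at day 21. The count was 3 without day 7 replicate 2 (7.32% of the list against 3.78% of all genes), 2 without day 21 replicate 2 (4.88% against 3.84%) and 3 without day 21 replicate 3 (7.32% against 3.49%). It was also 3 with median centring (against 3.18% of all genes), with the mean of all probes (4.13%) and with array weights (5.03%). With the scanner's processed signals it was 1 (2.44% against 3.95%). Over all fits with 1 animal left out the count ranged from 2 to 6 of 41, where 3.49% to 5.97% of all genes were past that limit.

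The arrays were scanned on 5 days, and scan days 3, 4 and 5 held animals of both cohorts, with 1 animal of day 7 against 2, 2 and 1 of day 21. Each difference within a scan day therefore rests on 1 day 7 animal, has no test, and on scan day 3 includes day 21 replicate 4. For Cfl2 the differences were -0.28, -0.17 and -0.21, a sign that is fixed because its days do not overlap. For Cyfip2 they were -0.08, 0.40 and 0.11, and for Abi2 -0.09, 0.35 and 0.37. Neither kept the sign of its overall difference on scan day 3. For Fmnl1 they were -0.25, -0.17 and 0.13, and for the Wasl probe 0.11, 0.68 and 0.70.

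The dependence on normalization has a measurable form. The members are bright: 18 of the 41 chosen probes lay in the brightest 10% of the genes tested. With median centring alone, the day 7 ratio over all genes had a median of 0.07 in the dimmest 10% of genes and -0.18 in the brightest 10%, while with loess, which removes such a trend by construction, the medians were 0.00 in both. Over the members the 2 arrays of an animal, with dyes exchanged, had a median correlation of 0.73 with loess, 0.63 with the scanner's processed signals and 0.23 with median centring. Over all genes the medians were lower: 0.67 with loess, 0.26 with the scanner's processed signals and -0.09 with median centring.

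**Figure D4:**
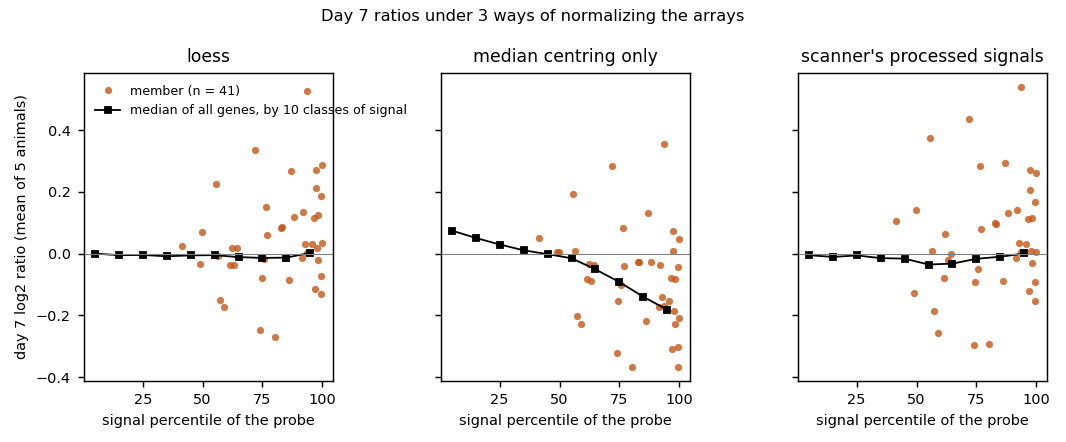
Mean day 7 log2 ratio of each member (orange points, n = 41) against the percentile of its probe's signal among all genes tested, with loess, with median centring only and with the scanner's processed signals, and the median of all genes in each of 10 equal classes of signal (black squares). With median centring the brightest class had a median of -0.18 and 12 of 41 members lay above 0, against 25 of 41 with loess.

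Levels of the separate channels, scaled between arrays, were then compared between day 21 and day 7 within each kind of neuron (5 animals against 5 others). Within sprouting neurons the median change of the members was -0.03 (log2) against -0.05 over all genes, no member passed (0.0% of all genes), and 5 had an unadjusted p under 0.05, 12.2% against 8.98% of all genes. Within non-sprouting neurons the median change was 0.07 against -0.05, no member passed (0.0% of all genes), and again 5 had an unadjusted p under 0.05, against 9.18% of all genes. For sprouting neurons the count was 2 without day 7 replicate 2 (4.88% of the list against 5.68% of all genes) and 2 without day 21 replicate 2 (4.88% against 7.89%). Without day 7 replicate 5 it was 4, 9.76% of the list against 18.2% of all genes, and in non-sprouting neurons also 4, against 19.3% of all genes. For non-sprouting neurons it was 2 without day 7 replicate 2 (4.88% against 6.12%), 3 without day 7 replicate 3 (7.32% against 6.70%), 3 without day 7 replicate 4 (7.32% against 9.55%), 3 without day 21 replicate 2 (7.32% against 9.46%) and 1 without day 21 replicate 5 (2.44% against 6.83%). With the scanner's processed signals it was 1 in sprouting (2.44% against 9.29%) and 2 in non-sprouting neurons (4.88% against 9.60%), and the sprouting median was 0.01. With all channels scaled by quantiles it was 4 in sprouting (9.76% against 8.60%) and 2 in non-sprouting neurons (4.88% against 9.26%). With scan day as a fixed block, over the 8 animals of the 3 shared scan days, it was 2 for each kind of neuron (4.88% against 4.22% and 4.44%), an alternative added after seeing the data.

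The same comparisons were made for markers of neurons and of other cells. In sprouting neurons 8 of 9 oligodendrocyte markers were lower at day 21, with a median difference of -0.79, and 7 of the 9 had an unadjusted p under 0.05, against 8.98% of all genes. Of 7 astrocyte markers 6 were lower there (median -0.37), 3 of them at an unadjusted p under 0.05. Endothelial and mural markers were lower in 7 of 8 (median -0.25) and microglial markers in 9 of 10 (median -0.09). The neuron markers were lower in 5 of 7 (median -0.28), while interneuron markers were higher in 5 of 6 (median 0.10). In non-sprouting neurons the medians were -0.43 over the oligodendrocyte markers (1 of 9 at that p) and -0.22 over the astrocyte markers (0 of 7 at that p), and no marker of these lists passed the adjusted test in limma in either kind of neuron. Their part in the differences of the actin genes over time was not tested.

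In sprouting neurons the log2 level of Cyfip1 was 8.84, 9.08, 8.78, 9.19 and 8.66 at day 7 and 8.09, 8.34, 8.40, 8.75 and 8.67 at day 21. The groups overlapped, with a difference of -0.46 ± 0.16 (SE, n = 5 each, adjusted p 0.482, limma). In non-sprouting neurons Cyfip1 was 8.69, 8.94, 8.80, 9.25 and 8.57 at day 7 and 8.07, 8.46, 8.56, 8.79 and 8.50 at day 21, a difference of -0.37 ± 0.16 (SE). The days overlapped in non-sprouting neurons too, and both kinds of neuron share animals and arrays.

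Cfl2 in sprouting neurons was 11.00, 11.15, 11.45, 11.25 and 11.31 at day 7 and 10.53, 10.92, 10.97, 10.93 and 10.98 at day 21. These groups did not overlap, which held for no other member (1.57% of all genes), with a difference of -0.37 ± 0.13 (SE, n = 5 each, adjusted p 0.497, limma), and in non-sprouting neurons, where no member was apart (1.56% of all genes), the difference was -0.20 ± 0.12 (SE). Cfl1 went the other way in value: 8.79, 8.18, 8.65, 9.05 and 8.04 at day 7 against 8.97, 9.14, 8.95, 8.91 and 8.995 at day 21 in sprouting neurons, a difference of 0.45 ± 0.18 (SE, adjusted p 0.543, limma). The non-sprouting difference of Cfl1 was 0.47 ± 0.27 (SE), and day 7 replicate 5 had the lowest Cfl1 level of its day in both kinds of neuron (8.04 and 7.45).

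Pfn2 in sprouting neurons was 15.14, 15.60, 15.38, 15.52 and 15.51 at day 7 and 15.12, 15.04, 15.00, 15.18 and 15.37 at day 21, a difference of -0.29 ± 0.12 (SE, n = 5 each, adjusted p 0.546, limma) in a range where spots saturate. Arpc2, which made up the 5 in sprouting neurons and has a difference of 0.26, was 10.69, 10.79, 10.71, 10.85 and 10.89 at day 7 and 10.99, 10.87, 11.17, 10.90 and 11.16 at day 21 in non-sprouting neurons, a difference of 0.23 ± 0.10 (SE, adjusted p 0.535, limma). Cdc42 in non-sprouting neurons was 13.14, 12.82, 13.35, 13.11 and 13.14 at day 7 and 13.60, 13.22, 13.25, 13.61 and 13.39 at day 21, a difference of 0.30 ± 0.13 (SE, adjusted p 0.532, limma). Its groups overlapped through day 7 replicate 3.

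The Wasl probe in non-sprouting neurons was 7.98, 7.86, 7.94, 7.63 and 7.57 at day 7 and 7.25, 7.03, 7.17, 7.71 and 7.07 at day 21, a difference of -0.55 ± 0.15 (SE, n = 5 each, adjusted p 0.459, limma). Only day 21 replicate 4 reached the day 7 range. The Wasl probe that RefSeq does not give to Iqub had a difference of 0.09 there. Cyfip2, the remaining one of the 5 in non-sprouting neurons, had a difference of -0.36 there and -0.07 in sprouting neurons.

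**Figure D5:**
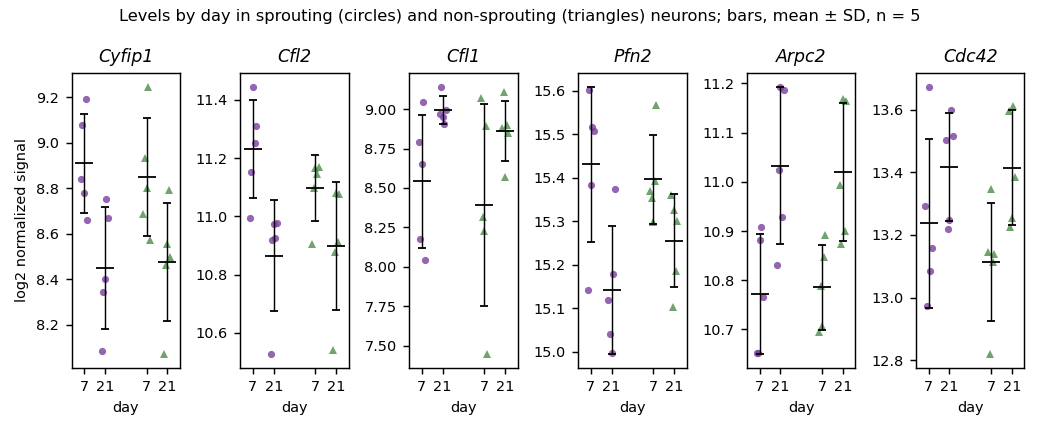
Log2 normalized signal of 6 members at day 7 and day 21 in sprouting (circles) and non-sprouting (triangles) neurons, 1 point per animal, with mean ± SD (n = 5), each gene on its own axis. Cfl2 in sprouting neurons is the panel where the days do not overlap, and Cyfip1 is lower and Arpc2 and Cfl1 higher on average at day 21 in both kinds of neuron.

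Beyond the members, 81 other genes of actin regulation from a list of 97 were measured. Their values are given for the brightest probe with loess only, and other probes and normalizations are not described for them. At day 7 none passed, and 10 had an unadjusted p under 0.05, 12.3% against 9.48% of all genes, 6 above 0 and 4 below. Limk2, a kinase that inactivates cofilin, had day 7 ratios of -0.20, -0.48, -0.37, -0.42 and -0.06, below 0 in all 5 animals (mean -0.31 ± 0.17, SD, n = 5, adjusted p 0.310, limma). Rnd1, a small GTPase, had -0.06, -0.64, -0.51, -0.41 and -0.52 (mean -0.43 ± 0.22, SD, n = 5, adjusted p 0.319, limma). Rnd1 and Limk2 were the lowest of the named genes of this list at day 7, and Add3, gamma adducin, was the highest with a mean of 0.50 ± 0.35 (SD, n = 5). Spire1, an actin nucleator, had a mean of 0.20 ± 0.13 (SD) over the 4 day 7 animals in which it was measured and 0.18 ± 0.09 (SD, n = 5) at day 21.

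At day 21 none of the 81 passed and 3 had an unadjusted p under 0.05, 3.70% against 5.8% of all genes: Spire1, Tmod2 (0.19), a filament-end capper, and Capza2 (-0.18), a capping protein subunit. Msn (0.06), which links filaments to the membrane, came next. Over both days 11 of 81 had an unadjusted p under 0.05, 13.6% against 11.0% of all genes, led by Spire1 (0.19), Limk2 (-0.18), Add3 (0.36) and Tmod2 (0.15). For day 21 minus day 7 there were 6 of 81, 7.41% against 4.05% of all genes, led by Rnd1 (0.48), Limk2 (0.25), Fmnl2 (-0.21), a formin, and Coro1b (-0.19), a coronin that acts on Arp2/3. Over time within sprouting neurons there were 7 of 81, 8.64% against 8.98% of all genes, led by Rnd3 (0.97), Rdx (-0.71), Rhoq (-0.61) and Cnn3 (-0.54). Within non-sprouting neurons there were 3 of 81, 3.70% against 9.18% of all genes, with Rnd3 (0.84), Rhoq (-0.46) and Dbn1 (-0.37) past that limit and Capg (-0.32) next. None of the 81 passed the adjusted test in any of the 6 comparisons.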

How the data were processed

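The members and all lists were chosen with earlier results of these data known. Each array's scanner file, made with Agilent Feature Extraction 9.1.3.1 per the file headers, holds spot intensities in Cy5 and Cy3. The authors also deposited log2 ratios per array whose method is not given in the sources used here. They served as an alternative, and 20 further columns were not used. Mean signals were corrected with normexp (offset 50), normalized by loess within each array without control spots, and turned to sprouting over non-sprouting. Outlier spots were set missing after the loess fit. The 2 arrays of an animal were averaged. Of 41012 probes, 37343 were kept, which stood clearly over background in a share of 0.5 or more of some cell type's arrays of a day and were measured in 3 or more animals of each day, and the brightest probe stood for a gene. Medians of channel signals ranged from 98.7 to 345 in Cy5 and from 134 to 281 in Cy3 over the arrays, and 10 animals limit the precision.

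Ratios were fitted with limma 3.58.1 (R 4.3.3), lmFit and eBayes, with a mean per day over all 10 animals, two-sided. p-values were adjusted by Benjamini-Hochberg over 33088 genes and called under 0.05. Channel levels used Aquantile scaling. Unadjusted p-values were used to order genes and are given as counts past 0.05. The test was tried on simulated day 7 ratios with 200 changed genes. It recovered a share of 0.98 of log2 changes of size 1 and 1.0 of those of size 2, with 13 false calls. Smaller changes, such as the member means given here, were not simulated, so it cannot tell whether they would be found. The labels call the days separate cohorts, so numbers do not pair animals. Same-numbered animals correlated between -0.20 and 0.00, which cannot decide this, since animals of the same day correlated little too. Values by animal were given for the members with the smallest p (8 at each day, 5 for both days and for the difference, 4 within each cell type) and for 10 fixed members, and the 4 smallest of the other actin genes were named per comparison. Names were matched through RefSeq's table of GRCr8. Of 41012 probes, 21814 could not be matched to a RefSeq symbol and kept the name in the array file. Each such name counts as a gene here, so the 33088 genes are not all distinct RefSeq genes. Alternatives covered background, normalization, filters, probes, batch and leaving out animals. Some were added after seeing the data.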

Additional observations from a re-analysis of the deposited data

Results flagged for a closer look

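Of 44 groups of 5 animals examined for a value set apart from the others (22 described members at each day), 2 were marked, where chance alone marks about 1 in 20. Add2 in day 21 replicate 3 had a log2 ratio of 0.68, while the other animals of that day lay between -0.10 and 0.05. Rac1 in the same animal had a log2 ratio of 0.20, and the others lay between -0.06 and 0.00. The arrays of day 21 replicate 3 had a correlation of 0.94 over the members. The dimmer Add2 probe gave a day 21 mean of 0.07 against 0.11 for the chosen one. No cause was tested.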

How the results depend on the processing

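The count of members called was 0 in each comparison under every alternative run except the fit of all 20 arrays. This held with each animal left out too (0 to 0). With all 20 arrays and animals as a random block the count was 1 at day 7 and 1 for both days. Of 33088 genes, 402 and 511 were called there, with both arrays of an animal entered separately. With median centring the median ratio was -0.078 at day 7, -0.052 for both days and 0.037 for day 21 minus day 7. With only probes well above background on every array (31 members), that difference was -0.097. Leaving out an animal gave medians from 0.02 to 0.04 at day 7, 0.00 to 0.03 at day 21, 0.00 to 0.01 for both days, -0.07 to -0.01 for the difference, -0.09 to 0.00 over time in sprouting and -0.01 to 0.09 in non-sprouting neurons. A replicate block, although the numbers do not pair animals, gave the same medians, 0 members called, and 3 members at an unadjusted p under 0.05 for the difference against 5 (7.32% of the list, 3.28% of all genes). In sprouting neurons it gave 3 against 5, 7.32% of the list, below the 11.4% of all genes. Of 39 described ratios, median centring turned the sign of 7, and leaving out an animal turned 8 of 470 described values. Signal saturation limits Pfn2 and Tmsb4x, and signals near background limit Diaph1, Enah and Vasp.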
